A study of Ovis aries with 14 samples.

Results

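A set of 21 genes was counted more often in the lungs of all 6 preterm lambs that had received respiratory support than in any of 8 lambs that had not, while at least 1 of the 2 term lungs stayed within the fetal range. The 21 members were drawn from 27054 Ensembl gene identifiers by 4 conditions on CPM (counts of a gene per 1000000 counts of its library). The mean CPM over 14 libraries had to lie from 2 to under 1000, and every supported library had to exceed every other library. The mean of the 6 supported libraries had to be at least 1.3 times the mean of the other 8, and at least 1 term library had to be at or below the highest fetal library. Members were thus chosen by their CPM in all 14 libraries, so the difference between supported and unsupported lungs is given below as a description, with no test. None of the identifiers could be paired with gene names or genome positions from the tables used here, so members are given by identifier, or by rank from 1 (the largest ratio of means) to 21, and their functions are not described.

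Each library was made from 1 animal, a lamb (Ovis aries) whose right lower lobe was sampled. Preterm lambs supported for 3 days received invasive mechanical ventilation (IMV, n = 3) or noninvasive respiratory support by mask (NRS, n = 3), and both groups are labelled gd134, where gd stands before the age in days of gestation. Fetal lungs with no treatment were labelled gd127, gd128 and gd131 (fetal start, n = 3) and gd135, gd134 and gd136 (fetal end, n = 3). Untreated term lungs were labelled gd150 (n = 2); the labels do not say whether these lambs had breathed air. No strain, genotype or drug is named in the labels, and any treatment that went with the support itself cannot be told apart from it. In bulk tissue, more cells of a type and more RNA per cell cannot be told apart either.

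At birth the lung changes from a fluid-filled organ that secretes liquid to an air-filled one, and a preterm lung makes this change before its air spaces are complete. Invasive ventilation drives gas through a tube in the airway, whereas support by mask leaves the lamb not intubated. A gene raised by support, but not at term, is here one that meets the conditions above. Its level in the supported preterm lungs goes past both the fetal and the term level, and at least 1 term library is not above all fetal ones. The name does not mean that the term level equals the fetal one.

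The number of such genes was small. Of 13364 genes in the CPM range, 487 were higher in all 6 supported libraries than in all 6 fetal ones, and in 399 of these both term libraries were also above all fetal ones. Only 37 genes (0.277%) had all 6 supported libraries above all 8 others, term included. The ratio of means was at least 1.3 in 25 of the 37, and both term libraries were above the fetal range in 4 of these, which left 21. In the opposite direction 16 genes had all 6 supported libraries below all 8 others.

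Most members differed by less than 2-fold. The ratio of the supported mean to the mean of the other 8 libraries was 1.81 in the median member. It was at least 4 in 2 members, from 2 to under 4 in 5, from 1.5 to under 2 in 12 and under 1.5 in 2. At the threshold, the members with the lowest ratios stood at 1.39 and 1.34, and the genes just outside it, which met every other condition, at 1.29 and 1.27.

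**Figure D1:**
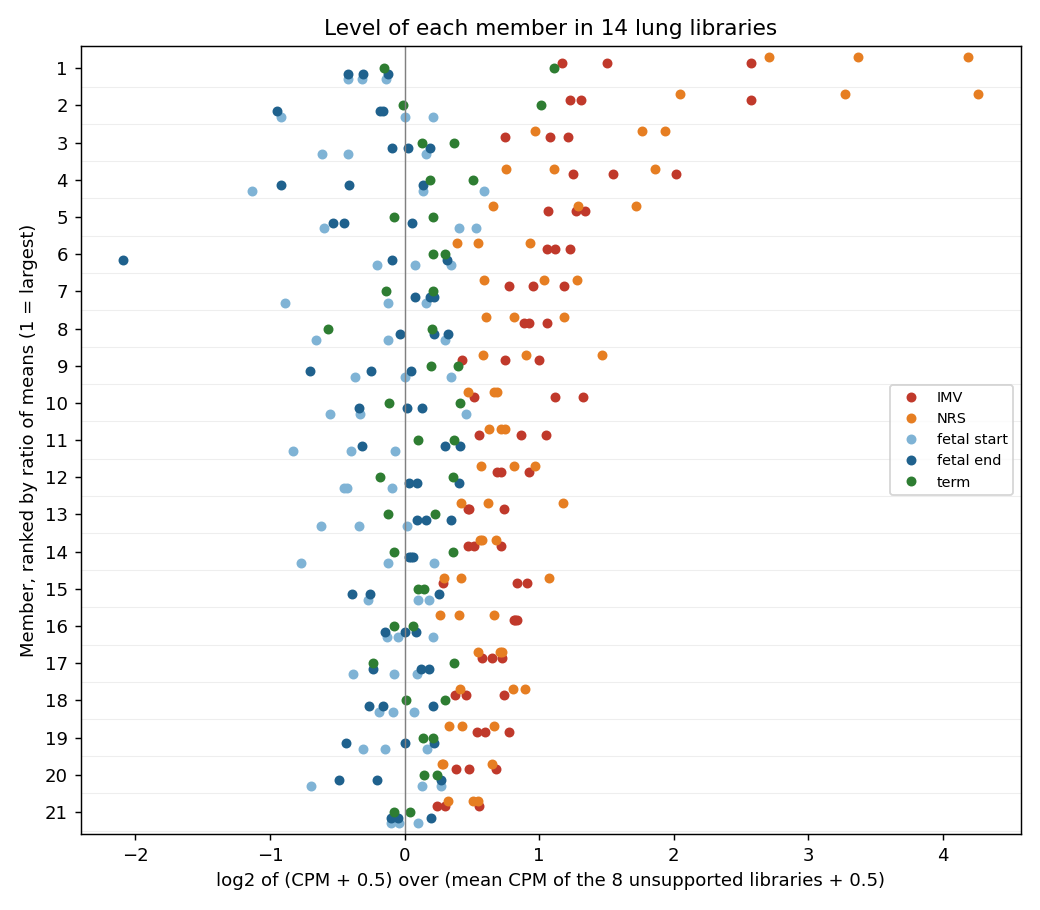
Each row is 1 of the 21 members, ranked by ratio, and each point is 1 library, coloured by group. The x axis is the log2 of CPM + 0.5 over the mean of the 8 unsupported libraries + 0.5. Supported libraries lie to the right in every row by construction, and the gap to the nearest other library is narrow in most rows.

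The separation between the groups was thin for most members. The lowest supported CPM exceeded the highest other CPM by a factor of 1.08 in the median member, from 1.00 to 1.36, and by less than 1.1 in 13 of 21. For 17 of the 21 members the exact 95% counting interval of that factor included 1, an interval that covers counting error in the 2 libraries only. The member ranked 20 shows this. Its lowest supported library stood at 21.5 CPM (NRS replicate 3) and its highest other library at 21.4 CPM (fetal end replicate 2), from 556 and 575 counts.

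ENSOARG00000014101 had the largest ratio. It was close to silent in fetal lungs, with 0, 3 and 1 counts in the fetal start libraries and 3, 0 and 1 in the fetal end libraries. The term libraries differed from each other, with 3 counts (0.102 CPM) in replicate 2 and 27 counts (0.947 CPM) in replicate 3. IMV libraries had 1.39, 3.48 and 1.00 CPM and NRS libraries 3.88, 6.40 and 11.7 CPM. Every supported library was thus above term replicate 3, but IMV replicate 3 by only 28 counts against 27. The supported mean was 4.64 ± 3.96 CPM (SD, n = 6) and the mean of the others 0.168 ± 0.318 CPM (SD, n = 8), a ratio of 27.6. That ratio was 81.1 without term replicate 3 and 19.2 without NRS replicate 3. Over summed counts, supported lungs had 89.8 times the fetal level (exact 95% counting interval 45.3 to 209) and 8.66 times the term level (6.01 to 12.9). These intervals cover counting error in reads pooled over animals and leave out the spread between animals. That spread was wide here: 1.00 to 11.7 CPM among the supported libraries, and 3 against 27 counts between the term libraries. The conditions and the ranking also picked this gene by the same difference, so the intervals are no test of it.

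ENSOARG00000012748 had the second largest ratio, 8.84. Its level was 5.75, 14.5 and 5.38 CPM after IMV and 23.8, 9.89 and 47.6 CPM after NRS. The fetal start libraries had 0.832, 2.02 and 2.41 CPM and the fetal end libraries 1.75, 1.71 and 0.806 CPM. Term replicate 2 stood at 4.59 CPM, above all fetal libraries, and term replicate 3 at 1.998 CPM, within their range. NRS replicate 3 carried much of the ratio, which was 5.88 without it.

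**Figure D2:**
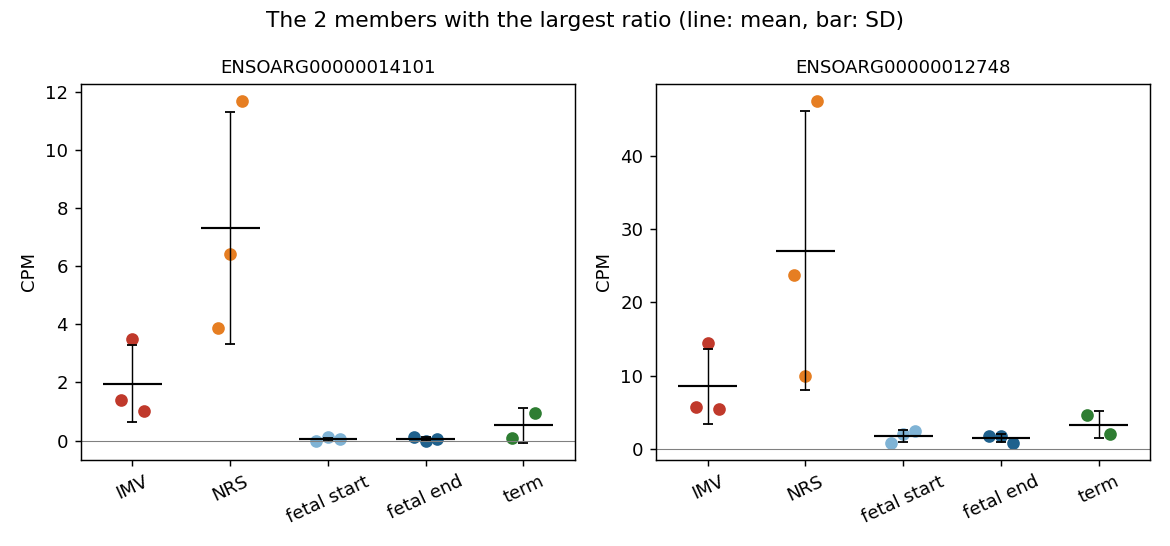
CPM of ENSOARG00000014101 (left) and ENSOARG00000012748 (right) in each library by group; lines are group means and bars SD. NRS replicate 3 is the highest library in both panels, at 11.7 and 47.6 CPM, and IMV replicate 3 the lowest supported one, at 1.00 and 5.38 CPM.

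The next 5 members had ratios from 2.02 to 2.94. The member ranked 3 shared with the first pair its highest library, NRS replicate 3 (8.95 CPM), and its lowest supported library, IMV replicate 3 (3.66 CPM). ENSOARG00000007924, ranked 5, had 38.1, 46.2 and 43.9 CPM after IMV and 60.3, 28.5 and 44.6 CPM after NRS. Its fetal start libraries were at 26.1, 23.9 and 11.7 CPM, its fetal end libraries at 12.3, 18.6 and 13.0 CPM and its term libraries at 20.9 and 16.9 CPM. Fetal start replicate 1 therefore lay just under NRS replicate 2. ENSOARG00000017989, ranked 6 and picked out after its values were seen, had 1 count in fetal end replicate 2 where the other 13 libraries had 41 to 153. Without that library its ratio was 1.87 in place of 2.13.

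The other 14 members had ratios from 1.34 to 1.90. Among them, ENSOARG00000008975 had the deepest counts, from 4755 to 22814 per library, so counting error was small beside the spread between animals. It was at 397, 591 and 495 CPM after IMV and 819, 443 and 553 CPM after NRS. Its term libraries, at 388 and 339 CPM, came close to the lowest of these, and its fetal libraries ran from 181 to 375 CPM. CPM values are not corrected for gene length, so levels are not compared between members. All 21 members together made up 0.0447% to 0.135% of the counts of a library.

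The term libraries are described next. The conditions placed both of them below every supported library and at least 1 within the fetal range, so their position is largely set by the choice of members and no support for the set's name is drawn from it. In 14 of the 21 members both term libraries were at or below the highest fetal library, and in the other 7 only 1 was, so that the second term library was above all fetal ones. Mean term CPM was above mean fetal CPM in 18 of 21 members, with a median ratio of 1.19 (0.888 to 10.5). On a scale where the fetal mean is 0% and the supported mean 100%, term stood at 15.8% in the median member, from -13.2% to 44.6%. No member reached 50%. In CPM the term mean was thus nearer the fetal than the supported mean in each of the 21 members. In folds this held for 20 of them, and the exception was ENSOARG00000014101, where term was 10.5 times fetal and supported 8.85 times term.

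**Figure D3:**
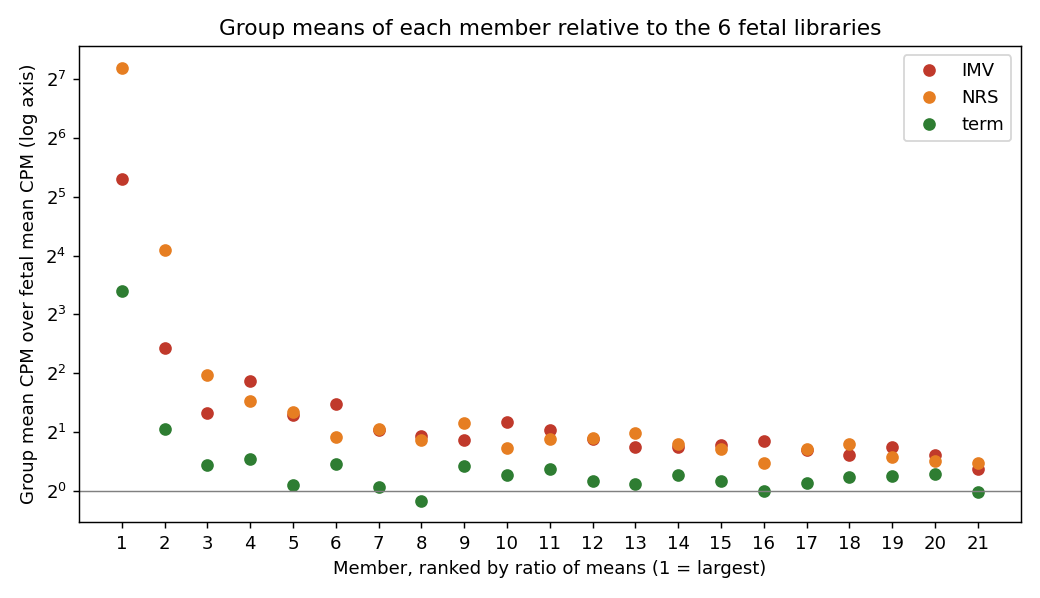
Mean CPM of the IMV, NRS and term groups over the mean of the 6 fetal libraries, for each member by rank, on a log axis. Term lies below both supported groups in each member, at a median of 1.19 times fetal, where IMV and NRS have medians of 1.83 and 1.84.

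Against fetal end in the fit over all genes, members had a median log2 fold change of 0.26 at term, 0.86 after IMV and 0.69 after NRS, where the medians over all 17069 genes tested were -0.01, -0.01 and -0.01. These comparisons share the fetal end libraries and were used by the conditions. The identifiers of all fetal end animals, and of no others, end in 19. Support or term and the identifier ending therefore cannot be told apart here. For term against fetal end, edgeR's quasi-likelihood test gave 0 of the 21 members an adjusted p under 0.05, beside 5.88% of all genes tested. An unadjusted p under 0.05 was found in 1 member (4.76%) and in 4432 genes (26%). Nothing is read from these counts, because the conditions used term and fetal libraries.

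The comparison of IMV with NRS was not used to choose members, because both groups had to be high. The comparison is given for the genes that were kept, and it does not show whether genes raised with support respond to its kind. In edgeR's quasi-likelihood test 0 of 21 members were called at an adjusted p under 0.05, and 0 of the 17069 genes tested were (percent called 0). At an unadjusted p under 0.05 there were 3 members (14.3%) and 1854 genes (10.9%). DESeq2 also called 0 members, and 119 genes, at an adjusted p under 0.05. Its unadjusted p was under 0.05 for 3 members and 2161 genes. The median log2 fold change of the members was 0.03 (quartiles -0.15 to 0.20), beside 0.00 (quartiles -0.18 to 0.19) for all genes tested. A positive value was found in 13 of the 21 members and in 50.7% of all genes.

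The 2 members with the largest ratios were also those furthest on the NRS side. High NRS libraries raise both the ratio and this difference, so nothing is read from the match. ENSOARG00000014101 had 1.96 ± 1.33 CPM after IMV and 7.32 ± 3.99 CPM after NRS (SD, n = 3 each), and the lowest NRS library (3.88 CPM) was above the highest IMV library (3.48 CPM). IMV lay below NRS by a fitted log2 difference of -1.86 ± 0.74 (SE; adjusted p = 0.409 by edgeR), which was -1.32 without NRS replicate 3 and -2.57 without IMV replicate 2. ENSOARG00000012748 had 8.53 ± 5.14 CPM after IMV and 27.1 ± 19.1 CPM after NRS (SD, n = 3 each), with overlap, since IMV replicate 2 exceeded NRS replicate 2. The fitted log2 difference was -1.63 ± 0.59 (SE; adjusted p = 0.389 by edgeR) and, without NRS replicate 3, -0.91; without IMV replicate 2 it was -2.25. Neither difference passed, and the adjusted p ran from 0.241 to 0.905 for the first and from 0.143 to 0.916 for the second over the alternatives.

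On the IMV side, ENSOARG00000005790 had 20.3, 20.1 and 20.4 CPM after IMV, and 18.2, 13.6 and 15.01 CPM after NRS, with no overlap. It had the smallest p of the members. The log2 difference was 0.43 ± 0.13 (SE; adjusted p = 0.36 by edgeR, 0.105 to 0.90 over the alternatives). Its fetal and term libraries lay between 10.1 and 13.1 CPM. ENSOARG00000012752 had 7.78, 12.03 and 13.96 CPM after IMV and 8.83, 7.52 and 8.64 CPM after NRS, which overlap. Here the log2 difference was 0.48 ± 0.29 (SE; adjusted p = 0.564 by edgeR, 0.407 to 0.887 over the alternatives). In total IMV was wholly above NRS in 2 members and NRS wholly above IMV in 1, so that 3 of 21 did not overlap, against 21.8% of the genes in the CPM range (IMV above in 6.95%, NRS above in 14.9%). The choice of members bears on this share, so nothing is read from it.

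**Figure D4:**
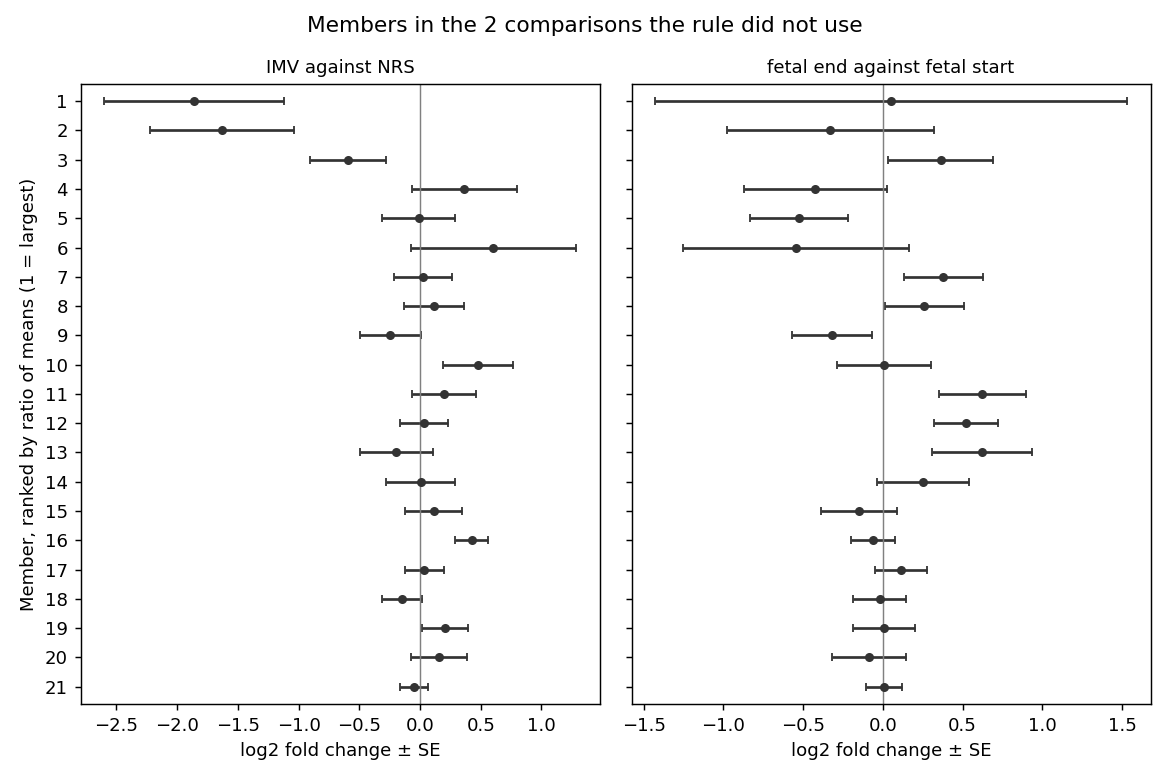
The log2 fold change with its SE for each of the 21 members by rank, for IMV against NRS (left) and fetal end against fetal start (right). Ranks 1 and 2 lie furthest to the NRS side, at -1.86 and -1.63, and the rest lie between -0.59 and 0.60; the largest values on the right are 0.62.

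The spread among supported lambs differed between members. The highest supported library was more than 2 times the lowest in 6 of 21 members, by 11.6 times in the first and 8.85 times in the second, and 1.63 times in the median member. The coefficient of variation was 12.6% in the median member after IMV and 20.8% after NRS, and it was larger after NRS in 16 of 21. The same share over all genes was not computed, so the wider spread after NRS is not read as a trait of the members. NRS replicate 2 was the lowest supported library in 11 members and IMV replicate 3 in 6. The highest was IMV replicate 2, NRS replicate 1 or NRS replicate 3 in 6 members each and IMV replicate 3 in 3. NRS replicate 2 was also the library with the fewest counts (23267448, against up to 31586235 in IMV replicate 2), and its part in this order was not tested.

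The step from fetal start (labelled gd127 to gd131) to fetal end (labelled gd134 to gd136) was not itself a condition either. It is not matched to the length of support. All fetal end animals, and no others, have identifiers ending in 19, so age and identifier ending cannot be told apart in this step. In edgeR's quasi-likelihood test 0 of 21 members were called, beside 1 of 17069 genes (0.00586%), with 2 members (9.52%) and 1321 genes (7.74%) at an unadjusted p under 0.05. DESeq2 called 0 members, and 116 genes, at an adjusted p under 0.05. Its unadjusted p was under 0.05 for 2 members and 1580 genes. The median log2 fold change of the members was 0.01 (quartiles -0.15 to 0.26), beside 0.00 for all genes tested, and 12 of 21 were positive. Members thus lay on both sides of 0 in this step.

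ENSOARG00000019345 had 4.34, 4.26 and 5.61 CPM at fetal start and 8.13, 6.14 and 6.45 CPM at fetal end, with no overlap. The log2 difference was 0.52 ± 0.20 (SE; adjusted p = 0.575 by edgeR, 0.287 to 0.998 over the alternatives). Supported libraries had 9.15 to 12.2 CPM and term libraries 7.85 and 5.22 CPM. ENSOARG00000007988 had 1.66, 3.16 and 2.41 CPM at fetal start and 4.23, 4.62 and 2.58 CPM at fetal end, with overlap and a log2 difference of 0.62 ± 0.27 (SE; adjusted p = 0.627 by edgeR, 0.473 to 0.998 over the alternatives). On the other side, ENSOARG00000007924 had a log2 difference of -0.53 ± 0.31 (SE; adjusted p = 0.731 by edgeR, 0.266 to 0.998 over the alternatives). For ENSOARG00000008975 it was -0.32 ± 0.25 (SE; adjusted p = 0.807 by edgeR, 0.501 to 0.998 over the alternatives). The CPM of the groups did not overlap in 2 of 21 members, both higher at fetal end, against 10.7% of the genes in the CPM range (5.97% higher and 4.69% lower at fetal end).

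Which genes belong to the set depended on single libraries. With TMM-scaled library sizes in place of totals 20 genes met the conditions, 19 of them members. ENSOARG00000012752 and the member ranked 20 left, the first because its lowest supported library (7.32) came under its highest other library (7.39). Leaving out a library can only loosen the condition that every supported library exceed every other one. A rise in the number of genes is therefore partly set in advance. Without NRS replicate 2 the conditions held for 96 genes, 20 of them members, and without term replicate 2 for 39 genes, 19 of them members. Without term replicate 3 they held for 31 genes, and only 16 of the 21 members were among these, the largest loss of members. Without any 1 of the other 11 libraries they held for 21 to 31 genes, with 19 to 21 of the members.

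**Figure D5:**
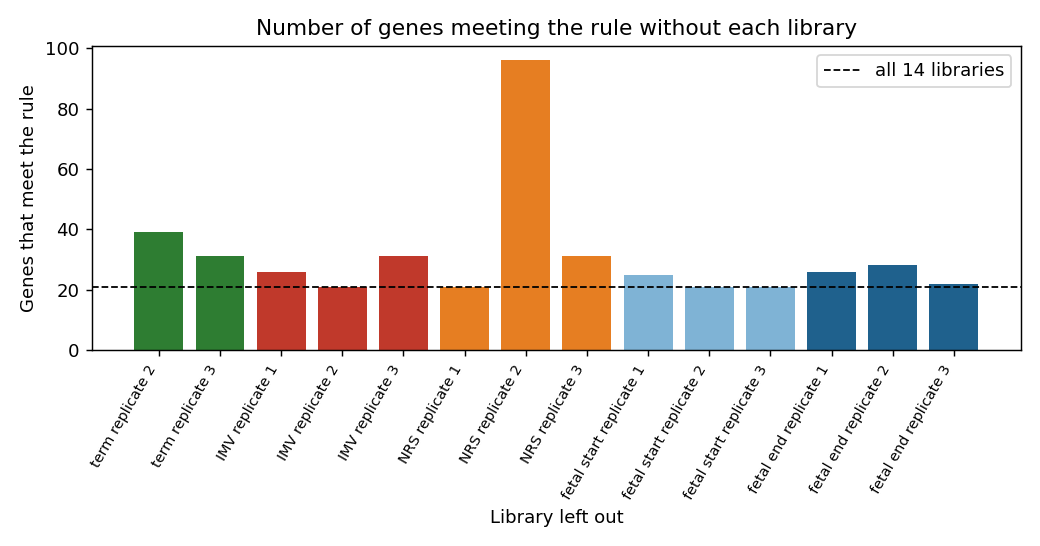
Number of genes that meet the conditions when each library is left out in turn; the dashed line is the 21 genes found with all 14 libraries. Leaving out NRS replicate 2 gives 96 genes and term replicate 2 gives 39; the other bars lie between 21 and 31.

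Animal identifiers in the labels end in 17, 18 or 19, and the labels do not say what the ending means. All fetal end animals end in 19, both term animals and all NRS animals in 18, and IMV and fetal start hold 17 and 18. Among the 8 animals ending in 18 (4 supported and 4 not), the ratio of means was 1.74 in the median member, from 1.35 to 19.3, beside 1.81 over all 14 libraries. For the first 2 members it was 19.3 and 7.87. Because every supported library had to exceed every other one, this ratio is above 1 in any subset of libraries, and it does not bear on whether the identifier ending moves with these genes. With a covariate for identifiers ending in 17, 0 members and 0 genes of the whole table were called for IMV against NRS. Both counts were 0 without the covariate too, so this fit does not bear on the identifier ending either.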

How the data were processed

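For 14 libraries the authors deposited raw gene counts in a single table; the values are whole numbers and were not normalized. The labels' protocols name a stranded total RNA kit. Tools named in the submitters' processing notes, without roles, are cutadapt 1.16, STAR 2.7.0f, featureCounts 1.6.3 and DESeq2 1.22.2, and the build is Oar_v3.1. Annotation release and strand setting are not given in the sources used, so reads of overlapping, antisense or near-identical genes may be misassigned. Groups came from sample titles. Totals ran from 23267448 to 31586235 counts. No library repeated another of its own group (chi-square per degree of freedom 26.97 to 85.01), and pairs from different groups were not checked.

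Members were found with CPM on column totals. Differences were tested with edgeR 4.0.16 in R 4.3.3, by its quasi-likelihood test after TMM scaling and filterByExpr (count minimum 10). All 14 libraries entered 1 fit of 5 group means with 9 residual degrees of freedom, and p-values were Benjamini-Hochberg adjusted over 17069 genes; all 21 members passed the filter. SE is the log2 fold change over the square root of F. The procedure was tested on simulated data. Alternatives were DESeq2 1.42.0, other scaling, filters, covariates, thresholds and single libraries left out. The members and lists were chosen with earlier results of these data known. Of 566 symbols in 43 gene lists 0 occur in the table, and 0 identifiers matched the reference table (ARS-UI_Ramb_v3.0), so the lists were not used. Named members are the 2 with the largest ratio and, per tested comparison, the 2 a direction with the smallest p.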

Additional observations from a re-analysis of the deposited data

How the results depend on the processing

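No alternative called a member: the count stayed at 0 for IMV against NRS and for fetal end against fetal start. The alternatives were DESeq2, RLE scaling, unfiltered counts, the 2 groups fitted alone and the replicate block. They also included the covariate for identifiers ending in 17 and each library of the 2 groups left out. The 8 single members kept their sign in all 96 values, 1 per member and alternative. These members were picked by smallest p in each direction, which favours a stable sign. Over the whole table the count for IMV against NRS was 119 with DESeq2 and 2 with the groups fitted alone, against 0, and ran from 0 to 2 with 1 library left out. For fetal end against fetal start it was 116 with DESeq2, and 0 with the groups fitted alone, with the replicate block and with the identifier covariate, against 1; with 1 library left out it ran from 0 to 5. The causes were not tested. The number of members ran from 21 to 96 with 1 library left out (39 without term replicate 2, 96 without NRS replicate 2), and was 20, 19 and 15 with TMM-scaled CPM, a ratio of at least 1.5 and a mean of at least 5 CPM. Replicate numbers were not taken as pairs in the main fit. Deviations of same-numbered libraries correlated at -0.152 to -0.00204 for IMV and NRS and -0.102 to -0.0685 for the fetal groups, across genes. Libraries with different numbers were not compared in this way, so these values do not settle whether animals were paired. Depth limits the members with few counts, 6 of which had a mean under 5 CPM, and groups of 2 or 3 animals limit every comparison.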
